A study of Mus musculus with 4 samples.

Results

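The transcription factors described here build and maintain the acinar cell, the enzyme-secreting cell of the pancreas. They are Ptf1a, Rbpjl, Rbpj, Bhlha15, Nr5a2, Gata4, Gata6, Foxa2 and Foxa3. Their probes were taken by the RefSeq transcript that each non-control probe names, and not by a measured ratio. The genes were chosen with earlier results of these data known, and the brightest tested probe stands for each gene. They are 9 of 17305 named genes on the array, with 13 of 41174 probes, and all 9 genes and all 13 probes passed the filter on dim spots (well above background on at least 3 of the 4 arrays in 1 channel). The series compared whole pancreas of Cyp11a1 knockout mouse embryos with that of wild-type embryos at E18.5, shortly before birth, both of strain C57BL/6JNarl, on 4 2-colour Agilent arrays. Cyp11a1 encodes the mitochondrial enzyme that starts steroid hormone synthesis from cholesterol. Each array held 1 knockout extract in red (Alexa 647) and 1 wild-type extract in green (Alexa 555). The dyes were never swapped, so a dye effect on a single probe and the genotype cannot be told apart. The labels call the arrays biological replicates, but how the knockout allele was made and whether an extract pools several embryos are unstated in the sources used here.

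PTF1 is a complex of 3 proteins that binds and activates the genes of digestive enzymes. Ptf1a, a basic helix-loop-helix protein, pairs in it with a broadly expressed E protein such as Tcf3 or Tcf12, and both bind DNA together with either Rbpj or Rbpjl. Rbpj is present in most cells, where it is also the DNA-binding partner of Notch receptors. It serves PTF1 in the early pancreas, and the acinar-restricted Rbpjl takes its place as acinar cells mature. Bhlha15 (Mist1) shapes the secretory machinery, and Nr5a2 (LRH-1), an orphan nuclear receptor, acts with PTF1 on enzyme genes. Gata4 and Gata6 are zinc finger factors needed for pancreas formation, and Foxa2 and Foxa3 are forkhead pioneer factors of endoderm-derived organs.

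The median spot signal of an array was 304 to 467 in red and 163 to 224 in green, with 78.2% to 85.1% of spots well above background. All 7 acinar markers checked (Cpa1, Cela1, Ctrb1, Pnlip, Cel, Prss2 and Clps) passed the filter, with a summed normalised signal of 564440 to 841680 over the knockout extracts and 562101 to 582887 over the wild-type extracts. Cyp11a1 was at -0.19, -0.40, 0.013 and -0.072 on arrays 1 to 4 (log2 ratio of knockout over wild type) and did not pass (mean -0.16 ± 0.070, SE, n = 4, limma adjusted p = 0.164). No source used here places its probe relative to the deleted part, so the genotype labels are not checked by it. In whole tissue, fewer acinar cells and less RNA per acinar cell cannot be told apart.

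Of the 9 factors, Rbpjl, Foxa2 and Foxa3 rose in knockout pancreas, 0 fell, and Ptf1a, Rbpj, Bhlha15, Nr5a2, Gata4 and Gata6 did not pass the test. The increases were 1.32-fold for Rbpjl, 1.27-fold for Foxa2 and 1.23-fold for Foxa3. Ptf1a was the member that differed most between arrays, lower in knockout on 2 arrays and higher on the other 2. Each SE of a ratio is limma's moderated one, which draws the variance of a gene toward that of other genes. Tests are limma's, against a log2 ratio of 0, adjusted by the Benjamini-Hochberg method over all 15522 genes tested with a threshold of 0.05. By that rule 14.6% of all genes were called, 9.45% as higher and 5.11% as lower. An unadjusted p under 0.05 was reached by 4 members, with 0 of these lower, and by 4777 of all 15522 genes. The median log2 ratio of the 9 members was 0.071, against 0.013 over all genes. With single channels compared and the array ignored, 0 of the 9 were called and 107 genes in all.

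**Figure D1:**
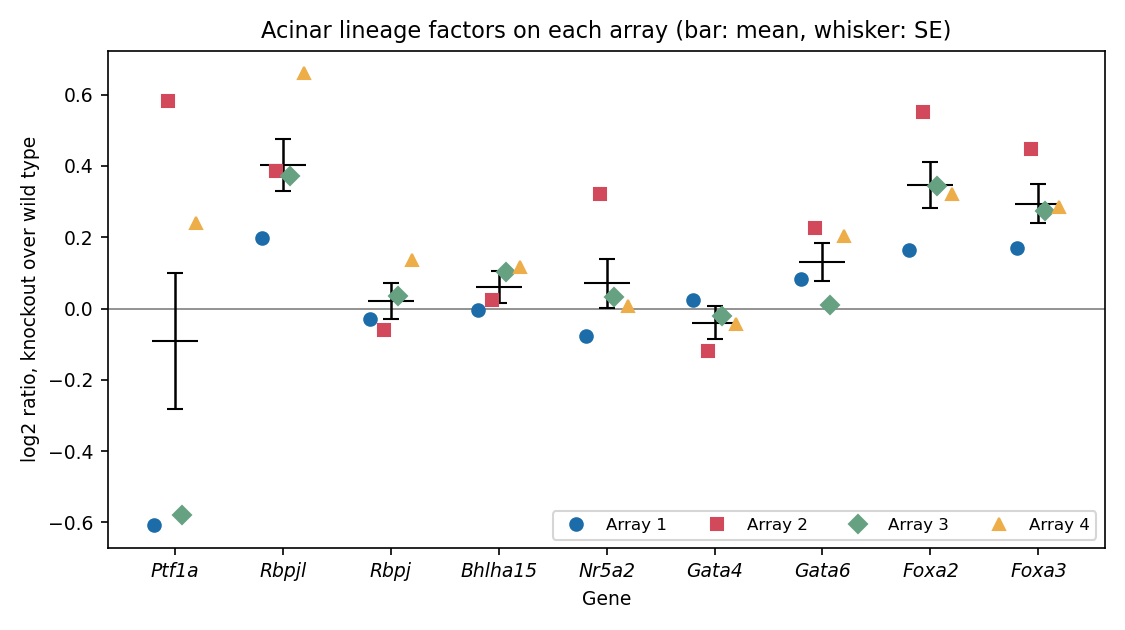
Log2 ratio of knockout over wild type for each factor on arrays 1 to 4 (coloured points), with the mean (black bar) and limma's moderated SE (whisker). Rbpjl, Foxa2 and Foxa3 lie above 0 on all 4 arrays, whereas the 4 points of Ptf1a run from -0.61 to 0.58.

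Rbpjl, the acinar-specific DNA-binding subunit of PTF1, gave log2 ratios of 0.20, 0.38, 0.37 and 0.66 on arrays 1 to 4. Its normalised signal was 6979, 7906, 11299 and 10383 in the knockout extracts and 6086, 6056, 8738 and 6572 in the wild-type extracts of the same arrays. The knockout extract was thus the brighter of the pair on every array, least on array 1 and most on array 4, although the ranges of the 2 groups overlap because the arrays differ in brightness. The mean was 0.40 ± 0.073 (SE, n = 4 arrays, limma adjusted p = 0.013). The ratio was above 98.4% of all genes tested. Leaving out 1 array gave 0.32 to 0.47 (adjusted p = 0.022 to 0.039). With single channels and no block the adjusted p was 0.098.

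Rbpj, which fills the same place in the complex at earlier stages and carries Notch signals in other cells, gave -0.030, -0.059, 0.036 and 0.14. Its mean was 0.021 ± 0.050 (limma adjusted p = 0.815), with an unadjusted 95% interval of -0.095 to 0.14. Its signal was low, 149 to 227 in knockout and 152 to 207 in wild type, yet each of the 4 arrays measured it well above background in red and in green. Rbpjl exceeded Rbpj by 0.38 ± 0.13 (SD, n = 4) on the log2 scale, and did so on 4 of 4 arrays. The exact two-sided sign permutation test gave p = 0.13, the smallest that 4 arrays allow (adjusted p = 0.25 over the 4 pairs compared). With median centring in place of loess this difference was 1.03. Loess removes a trend of the ratio with brightness, and Rbpjl is bright whereas Rbpj is dim.

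Ptf1a, the tissue-specific subunit, gave -0.61, 0.58, -0.58 and 0.24. Its signal was 6367, 9359, 9235 and 9768 in the knockout extracts and 9703, 6248, 13783 and 8270 in the wild-type extracts. Knockout was lower on arrays 1 and 3 and higher on arrays 2 and 4. The mean of -0.091 ± 0.19 (SE, n = 4, limma adjusted p = 0.789) did not pass, and the unadjusted 95% interval of -0.54 to 0.35 leaves room for a change of either sign. Its SD over the 4 arrays, 0.60, was larger than that of 99.4% of genes measured on all arrays, where the median SD was 0.10. The SE and interval above use the moderated variance, and are narrower than this SD alone would give. On array 1 Ptf1a was lower in knockout than all but 1.14% of genes, on array 3 than all but 1.40%, and on array 2 its ratio was above 98.6% of genes. Rbpjl and Rbpj did not split the arrays in this way. Rbpjl minus Ptf1a was 0.81, -0.20, 0.95 and 0.42 on arrays 1 to 4, a mean of 0.49 ± 0.51 (SD, n = 4) that did not pass (exact sign permutation p = 0.25).

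**Figure D2:**
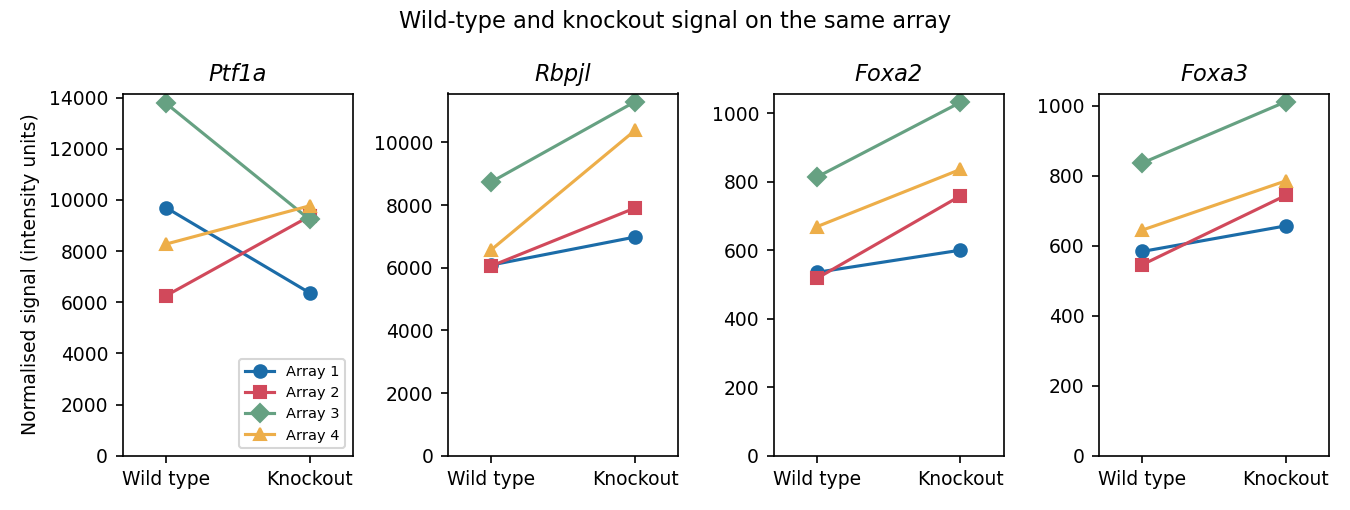
Normalised signal (intensity units) of Ptf1a, Rbpjl, Foxa2 and Foxa3 in the wild-type and the knockout extract of each array, joined by a line. The lines of Rbpjl, Foxa2 and Foxa3 go up on every array, and those of Ptf1a cross, falling from 9703 to 6367 on array 1 and rising from 6248 to 9359 on array 2.

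Transcripts that differ between the sexes also set arrays 1 and 3 apart. Xist, expressed from the inactive X chromosome of females, was at -3.91, -0.28, -4.22 and 3.46, and the Y-linked Eif2s3y at 1.82, 0.23, 1.74 and -1.20. No label states which sex the embryos had. Liver transcripts followed another order, with Alb, serum albumin, at 4.13, 2.70, -3.52 and 1.44. Of 10 hepatocyte markers tested, 0 passed in limma (2 had an unadjusted p under 0.05, as did 4777 of all 15522 genes). Their summed signal was 10386 to 18889 in knockout and 6794 to 14987 in wild type. Over all genes 14.6% were called. Without replicate 3, 5 of the 10 markers passed as higher (3.94% of all genes), and 5 did under median centring (61.0% of all genes). The part of either in the values of Ptf1a was not tested.

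Because PTF1 regulates genes of its own subunits, the bases before the gene starts were read for its kind of site. RefSeq promoters (build GRCm38.p6) held 11 starts of 7 of the factors, and the 250 bases before each were searched on both strands for TGGGAA, the core of the site of Rbpj and Rbpjl. The core was found before 4 of these starts, those of Ptf1a, Rbpjl and Rbpj, and in 21.6% of all 32851 promoters of the table. The 2 Rbpj starts lie close together, and the core 205 bases before the later start is the same as 1 found 65 bases before the earlier. The places found are shown with 30 bases each, 5′ to 3′ on the strand of the core, with the core in capitals and any E box CANNTG that follows it, the kind of site bound by Ptf1a and its E protein, in capitals too:
Rbpjl: ctgccgTGGGAAgcctaCATCTGcccagca
Ptf1a: actggcTGGGAActgaggacagcgtccctg
Rbpj, first: aaaggcTGGGAAcccgcggcgagcgggaag
Rbpj, second: gggtccTGGGAAaatgcgagcgtctcacag

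The Rbpjl stretch (chr2:164403084-164403113, plus strand) begins its core 104 bases before the start, and an E box follows after 5 bases. The Ptf1a stretch is chr2:19445488-19445517 on the plus strand, and those of Rbpj are chr5:53590191-53590220 on the plus and chr5:53590263-53590292 on the minus strand. A core with any E box within 20 bases, a search chosen after these sequences were read, was found in 4.29% of all promoters, and among the factors in Rbpjl and Rbpj, where the E box lies outside the bases shown. An E box of any kind was found in 66.2% of promoters. The E box CAGCTG (in 13% of promoters), the NR5A2 site CAAGGTCA (1.33%) and the forkhead site TGTTTAC (3.17%) were found before 0 of the 11 starts. AGATAA, bound by GATA factors (9.99%), was found before 3 of the 11 (1 start each of Rbpjl, Foxa2 and Nr5a2), and AGAACA, part of the glucocorticoid receptor's site (16.1%), before 3 (both starts of Nr5a2, and Bhlha15). These matches describe letters, and binding was not measured.

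Foxa2 and Foxa3 rose on every array, and by like amounts on the same array. Foxa2 gave 0.17, 0.55, 0.34 and 0.32, with a signal of 600, 759, 1032 and 836 in knockout and 535, 518, 813 and 669 in wild type. Foxa3 gave 0.17, 0.45, 0.27 and 0.29, with 657, 744, 1012 and 785 in knockout and 584, 546, 836 and 645 in wild type. Both were least raised on array 1 and most on array 2. The means were 0.35 ± 0.065 for Foxa2 (SE, n = 4 arrays, limma adjusted p = 0.015) and 0.29 ± 0.055 for Foxa3 (adjusted p = 0.015). Foxa2 minus Foxa3 was 0.051 ± 0.047 (SD, n = 4, exact sign permutation p = 0.25), with an unadjusted 95% interval of -0.023 to 0.13. Without replicate 4 Foxa3 was at 0.30 with limma adjusted p = 0.054, and Foxa2 at 0.35 with 0.049. With single channels and no block the adjusted p was 0.157 for Foxa2 and 0.229 for Foxa3.

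Both genes are also active in liver. On array 3, where Alb was at -3.52, Foxa2 was at 0.34 and Foxa3 at 0.27. On array 1, where Alb was at 4.13, both were at 0.17, their lowest. On array 2, where Alb was at 2.70, Foxa2 was at 0.55 and Foxa3 at 0.45, their highest. On array 4, where Alb was at 1.44, they were at 0.32 and 0.29. Without replicate 3, where 5 of 10 hepatocyte markers passed as higher, Foxa2 was at 0.35 and Foxa3 at 0.30. The part of liver transcripts in these values was not tested. Foxa1, the other member of the family, was at -0.013 ± 0.044 (limma adjusted p = 0.870). Under median centring the dimmer Foxa1 was at -0.57 and passed as lower (limma adjusted p = 0.00030), while Foxa2 and Foxa3 were at 0.63 and 0.59.

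The 10 spots that carry the Foxa2 probe give the technical error of its ratio within an array. Their SD was 0.059, 0.053, 0.13 and 0.050 on arrays 1 to 4, and all 10 were above 0 on each array (lowest 0.097). The SD of the 4 array means was 0.16, larger than the SD of the spots on any array. Genes as bright as Foxa2 (1528 genes within 0.25 log2 units of mean brightness) had array medians of 0.018 to 0.037, and 10.7% of them were called as higher.

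Gata4 was measured by 2 probes that differ. The bright probe A_51_P492355 (signal 5740 to 7973 in knockout and 6235 to 7897 in wild type) gave 0.024, -0.12, -0.021 and -0.043, a mean of -0.040 ± 0.046 (limma adjusted p = 0.598) that stands for the gene. The dimmer probe A_52_P4201 (639 to 1246 in knockout and 600 to 948 in wild type), also spotted 10 times, gave -0.0075, 0.46, 0.40 and 0.35, a mean of 0.30 ± 0.077 (SE, n = 4). In a fit of all 32586 probes, of which 10.7% were called 6.63% as higher and 4.12% as lower, its adjusted p was 0.045. The second probe exceeded the first by 0.58, 0.42 and 0.40 on arrays 2 to 4, and was 0.031 below it on array 1. The SD over its 10 spots was 0.052 to 0.087, so the gap between the probes on arrays 2 to 4 is larger than the spread of spots. Both probes name transcript NM_008092, and the sources used here do not place them on it. The call of the dimmer probe was lost without replicate 2, 3 or 4 (0.25 to 0.28, adjusted p = 0.122 to 0.152), with processed signals (0.33, adjusted p = 0.093), with the log ratio column (0.34, adjusted p = 0.084) and with single channels and no block (adjusted p = 0.377).

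**Figure D3:**
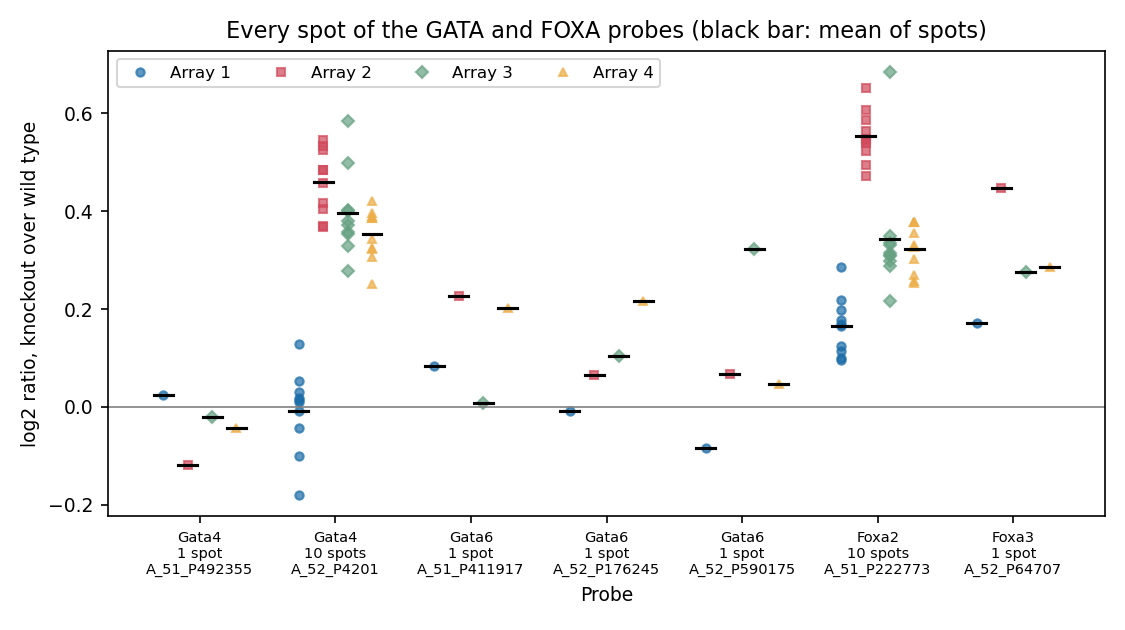
Log2 ratio of every spot of the probes for Gata4, Gata6, Foxa2 and Foxa3 on arrays 1 to 4, with the mean of the spots as a black bar. The 10 spots of the dimmer Gata4 probe lie between 0.25 and 0.58 on arrays 2 to 4, above the single spot of the brighter Gata4 probe on those arrays.

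Gata6, which overlaps with Gata4 in pancreas formation, gave 0.084, 0.23, 0.0090 and 0.20 on its brightest probe (signal 2460 to 3189 in knockout and 2321 to 3170 in wild type). All 4 arrays were above 0, but the mean of 0.13 ± 0.053 (limma adjusted p = 0.141) did not pass. Its other probes gave 0.095 ± 0.053 and 0.088 ± 0.068, each higher on 3 of 4 arrays, and did not pass either. Gata4 minus Gata6 was -0.17 ± 0.15 (SD, n = 4, exact sign permutation p = 0.13), and 0.025 when each gene was the mean of its probes, so the direction rests on the choice of the Gata4 probe. Over all genes measured on 4 arrays, 24.6% were above 0 on every array and 14.4% below. Of the 9 factors, 4 were above on every array and 0 below.

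Bhlha15 and Nr5a2 did not pass. Bhlha15 (signal 5393 to 10213 in knockout and 5411 to 9504 in wild type) gave -0.0047, 0.024, 0.10 and 0.12, a mean of 0.060 ± 0.046 (limma adjusted p = 0.412), and its second probe gave 0.072 ± 0.059. The unadjusted 95% interval was -0.046 to 0.17. Nr5a2 (3536 to 5118 and 3285 to 5003) gave -0.077, 0.32, 0.033 and 0.0077, a mean of 0.071 ± 0.069 (adjusted p = 0.521) that rests on array 2 and was -0.012 without replicate 2.

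Partners of these factors showed no call. Of 13 partner genes tested, 0 passed in limma, and 2 had an unadjusted p under 0.05. Over all genes 14.6% were called, so a count of 0 in a short list says little. An unadjusted p under 0.05 was reached by 4777 of all 15522 genes. The E protein genes Tcf3, Tcf4 and Tcf12, whose products pair with Ptf1a and Bhlha15, were at -0.020, 0.0046 and 0.0068. The Notch coactivators Maml1, Maml2 and Maml3, which bind Rbpj, were at -0.079, 0.0090 and 0.078. Spen, a corepressor of Rbpj, was at -0.028, the acetyltransferases Ep300 and Kat2b at -0.073 and -0.13, and the GATA cofactors Zfpm1 and Zfpm2 at 0.056 and 0.082. Nr0b2 (SHP), which represses Nr5a2, was at 0.12. Among 6 relatives tested 0 passed (1 with an unadjusted p under 0.05), with Gata1, Gata2, Nr5a1, Bhlhe22 and Bhlhe23 at -0.047, -0.038, -0.0078, -0.12 and -0.048. A second tested probe of Tcf3 gave 0.32.

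Digestive enzyme genes that PTF1 or NR5A2 are known to bind changed in both directions. Of 18 tested, 6 rose, 4 fell and 8 did not pass, with a median of 0.077. Over all genes 9.45% were called as higher and 5.11% as lower. Spink1, a trypsin inhibitor, was at 1.04 ± 0.076 and Pnliprp1, a lipase relative, at 0.92 ± 0.096 (SE, n = 4 arrays, limma adjusted p = 0.0016 and 0.0023). Those higher included Cel, Cpa1 and Clps (0.66, 0.62 and 0.54), and those lower were Cpb1, Pnliprp2, Cela1 and Pnlip (-0.78, -0.73, -0.69 and -0.20). With median centring 14 were higher and 0 lower, in a setting that called 61.0% of all genes as higher and 15.8% as lower. Of those lower, 1 was called without replicate 1, 2 without replicate 3 or with the log ratio column, 1 with eBayes trend and robust and 0 with single channels and no block, whereas 6 or more were called as higher in each of these. The list median by array was -0.17, 0.082, 0.32 and 0.31, lowest on array 1. Rbpjl was lowest there too, but so were Ptf1a, Bhlha15, Nr5a2, Foxa2 and Foxa3, whereas Rbpj, Gata4 and Gata6 were not. Over the other arrays Ptf1a took a different order, at -0.58 on array 3 where the list median was 0.32.

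Among genes reported to depend on Bhlha15, 0 of 11 tested passed in limma, where 14.6% of all genes were called. An unadjusted p under 0.05 was reached by 2 of them and by 4777 of all 15522 genes. Rab3d, a small GTPase of secretory granules, was at 0.19 ± 0.053 (limma adjusted p = 0.054). Tmed6, of the early secretory pathway, was at 0.32 ± 0.091 (adjusted p = 0.055). The next was Gjb1, a gap junction protein, at 0.087. Without replicate 1 Tmed6 passed at 0.43 (adjusted p = 0.029), and Rab3d passed with eBayes trend and robust (adjusted p = 0.031) and with the strict filter on dim probes (adjusted p = 0.0497). With median centring both passed (0.85 and 0.69).

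The Notch pathway, in which Rbpj is the DNA-binding factor, had 18 genes tested, of which 4 rose, 1 fell and 13 did not pass (median 0.022). Over all genes 9.45% were called as higher and 5.11% as lower. Dtx1, a ubiquitin ligase that regulates Notch, gave 0.31, 0.59, 0.42 and 0.30 and rose by 0.41 ± 0.059 (SE, n = 4 arrays, limma adjusted p = 0.0064). Lfng, a glycosyltransferase that modifies Notch, gave 0.27, 0.46, 0.48 and 0.26 and rose by 0.37 ± 0.056 (adjusted p = 0.0075). Hey1, a direct Notch target, gave -0.67, -0.25, -0.30 and -0.30 and fell by 0.38 ± 0.074 (adjusted p = 0.017). Mfng, a second glycosyltransferase, was at 0.24 ± 0.048 (adjusted p = 0.058 and 0.075 without replicate 1 and 3) and the ligand Dll1 at 0.20 ± 0.051 (adjusted p = 0.055 to 0.122 without any 1 replicate).

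The receptors and the other targets did not pass. Notch1, Notch2, Notch3 and Notch4 were at 0.20, 0.084, 0.014 and -0.0095, and Hes1, the target best known from pancreas progenitors, at -0.11 ± 0.068 (limma adjusted p = 0.309). With the log ratio column Hey1 was at -0.52 (adjusted p = 0.055). Under median centring 13 of the 18 were higher and 2 lower (61.0% and 15.8% of all genes), leaving out replicate 1 or 3 gave 2 higher, and with single channels and no block 0 were called.

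**Figure D4:**
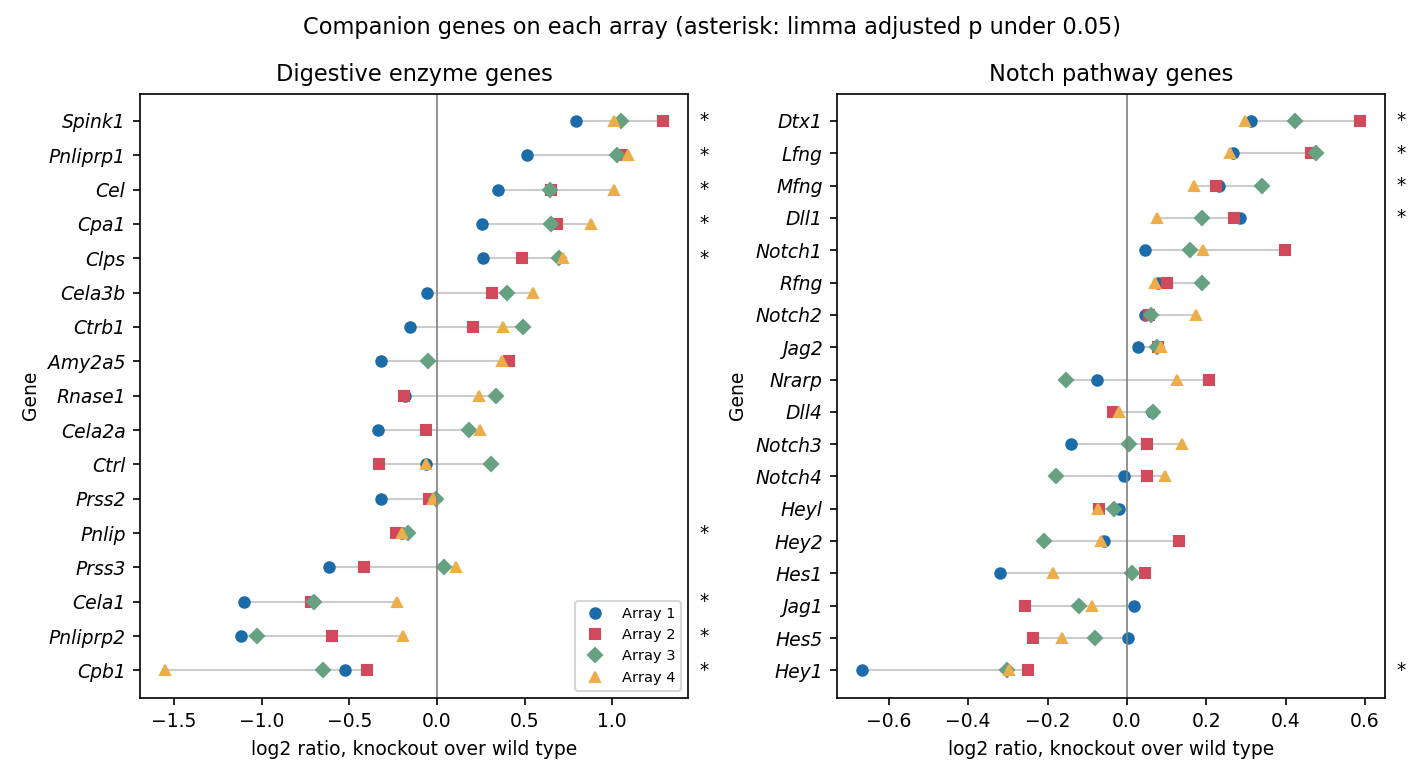
Log2 ratio of knockout over wild type on arrays 1 to 4 for 17 digestive enzyme genes (left) and 18 Notch pathway genes (right), each ordered by its mean, with an asterisk at limma adjusted p under 0.05. Spink1, a trypsin inhibitor, is highest in the left panel (0.79 to 1.29) and Cpb1 lowest, and Hey1 lies below 0 on all 4 arrays.

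Other pancreas progenitor factors did not pass (0 of 11 in limma, 2 with an unadjusted p under 0.05, median 0.051). Over all genes 14.6% were called, and 4777 of 15522 had an unadjusted p under 0.05. Hnf4a, a nuclear receptor, was at 0.18 ± 0.064 (adjusted p = 0.101), Myc at -0.13 and Xbp1, a factor of secretory cells, at 0.17. Pdx1, which the whole early pancreas needs, was at 0.045 ± 0.083 and Sox9, of progenitors and ducts, at 0.086 ± 0.046. Markers of other cells are set beside the same share of 14.6% called and the same unadjusted count over all genes. Of 7 duct genes 0 passed (1 with an unadjusted p under 0.05), as did 0 of 4 intestine (0), 0 of 4 stomach (1) and 0 of 5 blood genes (1). Of 6 islet genes Chga was lower, of 6 mesenchyme genes Pdgfrb was higher and of 5 endothelium genes Tek was lower. An unadjusted p under 0.05 was reached by 2 islet, 1 mesenchyme and 3 endothelium genes. The islet call was lost without replicate 1, 3 or 4, the endothelium call without replicate 3 or 4 and the mesenchyme call without replicate 4. Single channels with no block lost each of them. With processed signals, the log ratio column, scaling, the strict filter, eBayes trend and robust, or without replicate 2, 2 endothelium genes were lower. With median centring 3 were higher. The endothelium median was -0.16, -0.084, -0.15 and -0.14 on arrays 1 to 4. The summed signal of the duct genes was 140716 to 189561 in knockout and 138859 to 180163 in wild type, and that of the mesenchyme genes 98459 to 156616 and 90748 to 126533. The intestine markers Cdx2 and Cdh17 and the stomach markers Sox2 and Gkn2 did not pass the filter on dim spots. The part of these cells in the values of the 9 factors was not tested.

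How the array was scaled decided the sign of Ptf1a, Rbpj and Gata4, but not of Rbpjl, Foxa2, Foxa3, Bhlha15, Nr5a2 and Gata6. With median centring in place of loess the median of all genes was 0.26, and 8 of the 9 factors passed as higher, where 61.0% of all genes did so and 15.8% passed as lower. Taken relative to that median, Rbpjl was at 0.64, Foxa2 at 0.38, Foxa3 at 0.33, Gata6 at 0.31, Bhlha15 at 0.30, Nr5a2 at 0.27, Gata4 at 0.19, Ptf1a at 0.16 and the dim Rbpj at -0.38. After loess, genes as bright as a member had median log2 ratios between -0.018 and 0.022.

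**Figure D5:**
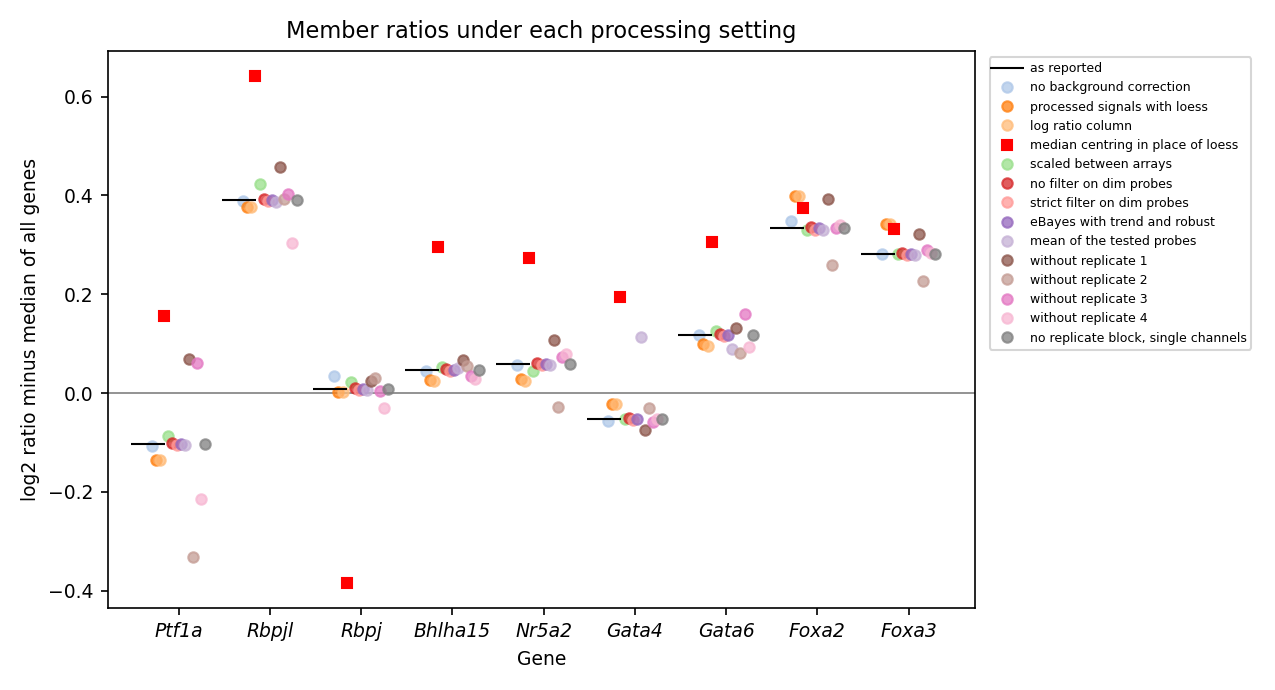
Log2 ratio of each factor minus the median of all genes tested, under every processing setting (points) and as reported (black bar). Rbpjl, Foxa2, Foxa3, Bhlha15 and Gata6 stay above 0 in every setting. Median centring (red squares) lifts the bright Bhlha15, Nr5a2, Gata4, Gata6 and Ptf1a and lowers the dim Rbpj to -0.38.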

How the data were processed

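The submitters' processing notes name Agilent Feature Extraction (version 10.5.1.1) as the software that made the 4 array files. The deposited columns used are the median intensity of each spot and of its background, the processed intensity of both dyes, and a log ratio, in log10 units with red as numerator, per the file headers. Median signals were corrected with normexp (offset 50) and normalised by loess within each array in limma 3.58.1 (R 4.3.3), with control and non-uniform spots at weight 0. After normalisation the spots marked non-uniform (597 to 979 on an array) were dropped, and the remaining spots of each probe were averaged; 0 spots were saturated. Accessions were matched to RefSeq symbols (GRCm38.p6), which named 25097 of 41174 probes (61.0%). No gene coordinate was taken from that table, since the build named in the array files is an older one. A comparison of the members' proteins was not analysed here. The brightest tested probe stood for a gene; 600 of 15522 genes had values on 3 arrays.

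Log2 ratios were fitted against 0 with lmFit and eBayes, which was checked on simulated data. There 45% of 100 log2 changes of 0.3 and 84% of 100 changes of 0.6 were called with the right sign. A gene can thus hold a change and not pass. The simulation changed fewer genes than were called here, so its shares need not hold for these data. Among members that did not pass, the unadjusted interval of Ptf1a (-0.54 to 0.35) includes a change of 0.3 either way. Those of Rbpj (-0.095 to 0.14), Bhlha15 (-0.046 to 0.17) and Nr5a2 (-0.088 to 0.23) do not. Nor do those of Gata6 (0.0080 to 0.25) and the bright Gata4 probe (-0.15 to 0.067). Normalised signals are read per channel after loess, and they are not compared between genes. Values with ± are mean and limma's moderated SE from 4 arrays unless SD is stated. That SE draws the variance of a gene toward that of other genes, and the intervals of single genes use it. The number of arrays and, for probes with 1 spot, spot error limit the precision. The p-values measure the spread between these arrays, moderated in limma. Differences between members used exact sign permutation tests. Named were all members with every probe, up to 3 genes of the smallest p per list, the partners and relatives, and otherwise genes chosen after their values were seen (other called genes of a list, Notch1 to Notch4, Hes1, Pdx1, Sox9, Alb, Xist, Eif2s3y and the called markers). The members and the 15 gene lists were chosen with earlier results of these data known, and the comparison with genes of like brightness was added after seeing the data. Some genes of these lists are counted but not reported here. Alternatives were other background and scaling choices, filters, probe rules, single channels, eBayes with trend and robust, and leaving out each replicate.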

Additional observations from a re-analysis of the deposited data

How the results depend on the processing

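Of 3 called members, Rbpjl, Foxa2 and Foxa3 stayed called under 8 of 8 settings that kept all 4 arrays and the loess ratio or the log ratio column, with log2 ratios of 0.38 to 0.44, 0.34 to 0.41 and 0.29 to 0.36. Without replicate 4 Foxa3 did not pass (adjusted p = 0.054). With every probe in the fit, Rbpjl (adjusted p = 0.061 and 0.062) and Foxa3 (0.051 and 0.057) did not pass with the log ratio column and with processed signals, Foxa2 and Foxa3 did not without replicate 3 (both 0.057), nor Foxa3 without replicate 4 (0.055). Causes of the lost calls were not tested. Leaving out a replicate or the array as a block also removes information. No paired analysis beyond the ratio was possible because both extracts of an array are already inside 1 ratio; the fit with no replicate block called 0 members, 77 genes as higher and 30 as lower.

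With median centring 8 members were higher, and 9470 genes were higher and 2450 lower. With every probe on its own 1341 probes were lower. Without 1 replicate, 612 to 997 genes were higher and 346 to 637 lower, and 2 or 3 members were higher. Signs turned with median centring for Ptf1a (0.41), Rbpj (-0.13), Gata4 (0.45) and the dimmest Gata6 probe (-0.18). Among the companions they turned for Tcf3 (0.50), Spen (0.47), Maml1 (0.11), Maml2 (-0.027), Zfpm2 (-0.032), Ep300 (0.30), Kat2b (0.18), Gata1 (0.030), Gata2 (0.076), Pnlip (0.069) and Myc (0.45). The median of all genes was 0.26 in that setting. Relative to it Maml1, Maml2, Kat2b, Gata1, Gata2 and Pnlip stayed below 0, as with loess, while Tcf3, Spen, Zfpm2, Ep300 and Myc turned. With the mean of probes, Gata4 was at 0.13 and Gata4 minus Gata6 at 0.025, and Tcf3 (0.15), Tcf4 (-0.013), Tcf12 (-0.041), Maml2 (-0.0072), Ep300 (0.011) and Myc (0.011) turned. Tcf12 turned with processed signals (-0.0059) and the log ratio column (-0.0018), and Tcf4 with scaling (-0.0025).

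Leaving out 1 replicate, ranges that crossed 0 were -0.32 to 0.082 for Ptf1a, -0.017 to 0.047 for Rbpj, -0.012 to 0.12 for Nr5a2, -0.046 to 0.017 for Tcf3, -0.025 to 0.034 for Tcf4, -0.020 to 0.025 for Tcf12, -0.0090 to 0.027 for Maml2, -0.030 to 0.0035 for Foxa1, -0.12 to 0.014 for Gata1 and -0.047 to 0.029 for Nr5a1. None of these passed in any such fit.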

Other observations

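The genes whose 4 log2 ratios lay nearest those of Rbpjl, by the root mean square difference among 14674 named genes measured on 4 arrays, were Gprin3 (0.052), Ndufa13 (0.071), Rpl36al (0.079), Wfdc2 (0.080) and Camsap3 (0.094). Gprin3 gave 0.12, 0.33, 0.39 and 0.62 on arrays 1 to 4, against 0.20, 0.38, 0.37 and 0.66 for Rbpjl. Wfdc2, a secreted protein of epithelia, gave 0.33, 0.47, 0.40 and 0.62. Ndufa13 encodes a respiratory chain subunit and Rpl36al a ribosomal protein. The measure favours genes of a like mean, and 4 arrays allow no test of likeness.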
